A study of Mus musculus with 4 samples.

Results

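The genes of matrix breakdown *Mmp3*, *Mmp7*, *Mmp10*, *Mmp13*, *Mmp14*, *Timp1*, *Timp2*, *Timp3* and *Plau* were followed in colonic epithelial preparations of mice with chemically induced colitis. They were chosen by name, with earlier results of these data known, from the matrix metalloproteinases, their tissue inhibitors and the plasminogen activators. All 9 members are among the 16015 genes with deposited values. RNA was sequenced from 2 mice labelled WT and 2 mice labelled *Bmal1* cKO on day 7 of treatment with dextran sulfate sodium (DSS), a polysaccharide that injures the colonic lining when drunk. DSS was given at 3% in the drinking water on 5 days, followed by 2 days of plain water. The methods give *Villin-CreERT2*; *Bmal1* fl/fl as the genotype of the cKO mice, injected with tamoxifen on 5 days, and *Bmal1* fl/fl as the control, so both groups carried the floxed allele. Whether the controls were injected with tamoxifen too is not stated apart. They give a C57BL/6 background and an age of 2 to 4 months for all mice. The Villin promoter drives the Cre in intestinal epithelial cells, so other cells of the colon keep an intact *Bmal1*. Crypts were freed from the large intestine with EDTA and by scraping, which does not select single cells by a surface marker.

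Matrix metalloproteinases (MMPs) are zinc-dependent enzymes that cut collagens, laminins and other proteins of the extracellular matrix, and several are made as inactive precursors that other proteases must cut. Tissue inhibitors of metalloproteinases (TIMPs) bind the active enzymes and block them. Urokinase, the product of *Plau*, turns plasminogen into plasmin, which digests fibrin and can activate several MMP precursors. In the inflamed gut, stromal cells and leukocytes are known as major sources of many of these proteins, while matrilysin (*Mmp7*) is known as an epithelial member.

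Values are normalized counts, in which a gene's reads are scaled by 1 factor per library to make libraries comparable. Each library held between 10312791 and 14156639 reads on the listed genes. Differences were tested with limma on log2(normalized count + 1) over all 13983 genes whose mean reached 10, as a two-sided test at an adjusted p (Benjamini-Hochberg) of 0.05. The targeted gene *Bmal1*, listed as *Arntl*, had 358 and 342 normalized counts in the WT mice and 341 and 289 in the cKO mice (log2 fold change -0.16, standard error 0.14, adjusted p = 0.389 from limma). The libraries labelled *Bmal1* cKO were thus not shown by the whole-gene count to lack *Bmal1* RNA. For cKO mice the paper reported BMAL1 lost from the intestinal epithelium by immunoblot and immunohistochemistry, which measure protein. Every direction below is that of the libraries labelled cKO against those labelled WT. The sums of 12 epithelial markers were 153996 and 177564 in the WT mice and 137828 and 144541 in the cKO mice, with *Epcam* between 17455 and 21772 in all 4 libraries. Markers of other cells were present too. The sums of 12 fibroblast markers were 16542 and 3976 in the WT mice against 740 and 811 in the cKO mice, and those of 12 leukocyte markers 11665 and 24416 against 2700 and 2548. GC-rich genes tended to have the more negative differences (Spearman's rho -0.61 across genes, which are not independent replicates). A GC-corrected value, with each library adjusted for GC content and exon length, is therefore given where it ends or adds a call or moves a value by over 1.5 times. For *Arntl* it was -0.40 (adjusted p = 0.0771 from limma), and with library total scaling -0.38 (adjusted p = 0.0787), and leaving out 1 mouse gave between -0.27 and -0.04.

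The genes *Mmp13*, *Mmp3*, *Mmp10* and *Mmp7* lie in this order within one cluster of metalloproteinase genes on chromosome 9, and the bases just before their start sites are shown because they hold the same pair of motifs. Each line below is the 100 bases before the RefSeq start site, read on the + strand of GRCm38.p6, with the AP-1 motif TGANTCA and the TATA motif TATAAA in capitals. AP-1 is the transcription factor family of Fos and Jun, and a TATA box positions the transcription machinery. The promoter of *Timp1* on chromosome X, which holds neither of these exact patterns, is shown for contrast. Variants of the patterns were not searched for.
Mmp13 (chr9:7272414-7272513): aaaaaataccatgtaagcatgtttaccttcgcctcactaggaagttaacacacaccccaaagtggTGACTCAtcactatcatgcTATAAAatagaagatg
Mmp3 (chr9:7445722-7445821): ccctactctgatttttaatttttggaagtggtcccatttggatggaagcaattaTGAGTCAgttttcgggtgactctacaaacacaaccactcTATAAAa
Mmp10 (chr9:7502242-7502341): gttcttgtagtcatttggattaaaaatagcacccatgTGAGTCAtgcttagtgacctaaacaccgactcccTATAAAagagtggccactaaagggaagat
Mmp7 (chr9:7691990-7692089): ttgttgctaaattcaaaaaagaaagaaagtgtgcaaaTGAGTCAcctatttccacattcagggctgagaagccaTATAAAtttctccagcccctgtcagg
Timp1 (chrX:20870066-20870165): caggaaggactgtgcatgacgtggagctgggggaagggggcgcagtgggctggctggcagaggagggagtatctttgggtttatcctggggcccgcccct

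RefSeq promoters, 250 bases before to 50 bases after a start site, matched 8 of the 9 genes and gave 9 promoters, with 2 for *Mmp7*. Both strands were searched for TGANTCA, for TATAAA and for CACGTG, the E-box that BMAL1 and CLOCK are known to bind. Of all 32851 promoters of this length, 7.81% held TGANTCA, 13.6% held TATAAA and 1.54% held both. All 4 chromosome 9 members held both, with the AP-1 motif starting 35 bases before the start site in *Mmp13*, 46 in *Mmp3*, and 63 in *Mmp10* and *Mmp7*. In *Mmp3*, *Mmp10* and *Mmp7* the motifs lay 32, 27 and 30 bases apart, and in *Mmp13* 12 bases apart. The promoters of *Mmp14*, *Timp1*, *Timp2* and *Timp3* held none of the 3 motifs. CACGTG, found in 7.15% of all promoters, was present only in the second *Mmp7* promoter among those of the members. A match describes the letters of these windows and is not evidence of binding.

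Between the groups, 5 of the 9 genes were lower in the libraries labelled cKO and 0 were higher (limma, adjusted p under 0.05). The 5 were *Timp1*, *Timp2*, *Timp3*, *Mmp14* and *Mmp7*. Among all tested genes 27.7% were called lower and 29% higher, 3871 and 4059 genes. Scaled by library totals instead, these numbers were 4885 and 3091, and 6 of the 9 genes were lower. In the GC-corrected values they were 2458 and 2570, and 4 of the 9 genes were lower. At an unadjusted p under 0.05, 6 were lower and 0 higher. edgeR on the recovered reads called 5 lower and 0 higher, and DESeq2 6 lower and 0 higher. Without WT mouse 1, 3 of the 9 genes were called lower (*Timp1*, *Timp2* and *Mmp14*), and without cKO mouse 1 or cKO mouse 2 it was 1, *Timp1*. With these mice left out, 2380, 2389 and 2205 of all tested genes were called lower. In 6 of the 9 genes both cKO libraries lay below both WT libraries, which was so for 41.7% of all tested genes. The median log2 fold change of the 9 genes was -1.95, beside -0.04 over all tested genes. WT mouse 1 was the higher of the WT mice for 8 of the 9 genes, *Mmp7* being the exception.

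**Figure D1:**
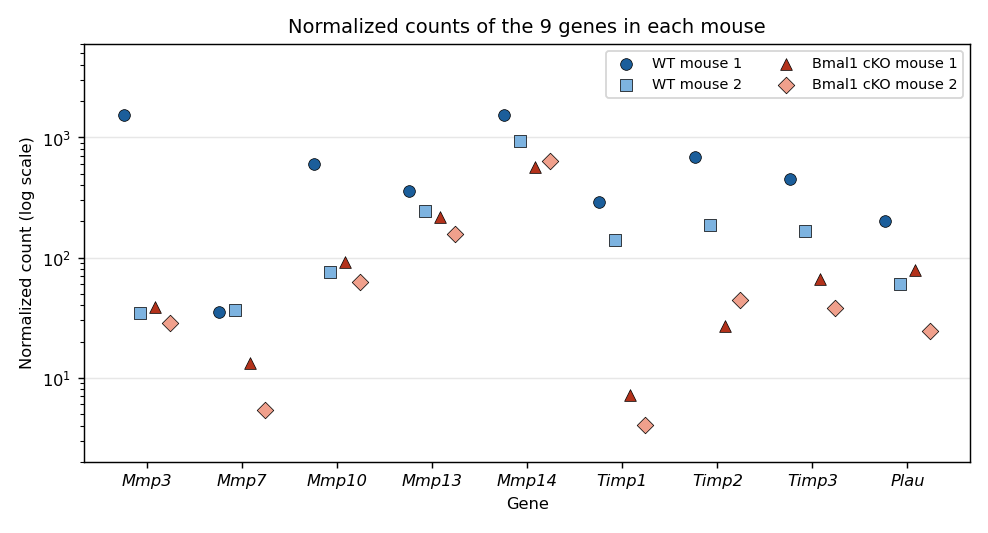
Normalized counts (vertical axis, log scale) of the 9 genes in each of the 4 mice, 1 symbol per mouse and gene. The cKO symbols lie below both WT symbols for *Mmp7*, *Mmp13*, *Mmp14*, *Timp1*, *Timp2* and *Timp3*, while WT mouse 2 lies among the cKO mice for *Mmp3*, *Mmp10* and *Plau*.

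All 3 TIMPs were lower in the cKO libraries, with the smallest adjusted p-values of the 9 genes. *Timp1* (ENSMUSG00000001131, GRCm38 chromosome X, 20870166 to 20874735) encodes a secreted inhibitor of many MMPs and is known as a gene induced by inflammation. It had 293 and 139 normalized counts in the WT mice and 7.20 and 4.06 in the cKO mice. Both cKO values were far below both WT values, and they rested on 7 and 3 reads. The log2 fold change was -4.98 (standard error 0.53, 95% interval -6.30 to -3.65, adjusted p = 0.00122 from limma). As a ratio of summed reads, 511 in WT against 10 in cKO, the level was 37.0 times higher in WT (exact 95% interval 19.96 to 77.6, counting error only). *Timp1* was the one member that kept its call under every alternative, with a log2 fold change between -5.51 and -4.30. It overlaps *Syn1*, a neuronal gene on the opposite strand, which had 15.2, 20.3, 3.09 and 1.35 normalized counts, and reads from the pair could not be told apart where the counting did not use strand.

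*Timp2* (ENSMUSG00000017466, chromosome 11, 118301069 to 118355740) encodes the inhibitor that also helps MT1-MMP activate the gelatinase MMP2 at the cell surface. It had 694 and 187 normalized counts in the WT mice and 26.7 and 44.6 in the cKO mice. The groups did not overlap, and WT mouse 1 was well above WT mouse 2. *Timp2* was lower by a log2 fold change of -3.35 (standard error 0.65, 95% interval -4.97 to -1.72, adjusted p = 0.00835 from limma). The call was lost when either cKO mouse was left out (log2 fold change -2.99, adjusted p = 0.0862 without cKO mouse 1 and -3.70, adjusted p = 0.0593 without cKO mouse 2). *Cep295nl*, which overlaps *Timp2* on the same strand, is not listed. *Timp3* (ENSMUSG00000020044, chromosome 10, 86300372 to 86349506), whose product binds to the matrix and also blocks ADAM17, had 450 and 167 normalized counts in the WT mice and 65.8 and 37.8 in the cKO mice. Again no cKO value reached a WT value. For *Timp3* the log2 fold change was -2.43 (standard error 0.53, 95% interval -3.77 to -1.09, adjusted p = 0.0129 from limma). Without WT mouse 1 it was -1.72 and did not pass (adjusted p = 0.0692), and without cKO mouse 1 or cKO mouse 2 it was -2.82 and -2.04 (adjusted p = 0.0600 and 0.108). *Syn3*, on the opposite strand of *Timp3*, had 22.8, 25.4, 24.7 and 9.46 normalized counts and was not called.

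Among the MMPs, *Mmp14* and *Mmp7* passed the test. *Mmp14* (ENSMUSG00000000957, chromosome 14, 54431612 to 54445364) encodes MT1-MMP, a collagenase anchored in the cell membrane. It had 1541 and 935 normalized counts in the WT mice and 571 and 639 in the cKO mice. The groups did not overlap, and the cKO mice lay close together. *Mmp14* differed by a log2 fold change of -0.99 (standard error 0.24, 95% interval -1.60 to -0.38, adjusted p = 0.0186 from limma), a mean of 1238 ± 428 against 605 ± 48.4 (SD, n = 2 each). Its GC content is 54.3%, and the GC-corrected log2 fold change was -0.47, which did not pass (adjusted p = 0.195). It also lost the call without either cKO mouse (log2 fold change -0.91 and -1.07, adjusted p = 0.134 and 0.101), while without WT mouse 1 it was -0.63 (adjusted p = 0.0420) and without WT mouse 2 -1.349 (adjusted p = 0.0137).

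*Mmp7* (ENSMUSG00000018623, chromosome 9, 7692090 to 7699585) encodes matrilysin. It had 35.5 and 36.4 normalized counts in the WT mice and 13.4 and 5.41 in the cKO mice. It was the one member for which the WT mice were nearly equal, and both cKO mice were below them. The log2 fold change was -1.95 (standard error 0.60, 95% interval -3.46 to -0.43, adjusted p = 0.0394 from limma), on 85 reads in WT and 17 in cKO. The call was narrow, and it was lost with DESeq2 (log2 fold change -1.91, adjusted p = 0.0672), in the GC-corrected values (-2.07, adjusted p = 0.0520) and when any 1 mouse was left out (-2.53 to -1.36, adjusted p between 0.0514 and 0.131). An antisense gene, AV064505, overlaps *Mmp7* and is not listed. Paneth cells of the small intestine are known to make matrilysin, and 2 of 6 Paneth cell markers were listed, with *Ang4* at 1315, 1780, 185 and 241 normalized counts in the order WT 1, WT 2, cKO 1 and cKO 2. The other, *Lyz1*, had 96.3, 18.6, 8.23 and 18.9 in the same order, with overlapping groups, and did not pass (adjusted p = 0.156 from limma). The preparations were of colon, and a link of these markers to *Mmp7* was not tested.

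*Mmp13* did not pass the adjusted threshold. It encodes collagenase 3, which cuts fibrillar collagens, and lies on chromosome 9 from 7272514 to 7283331 (ENSMUSG00000050578). The WT mice had 357 and 245 normalized counts and the cKO mice 216 and 157. No cKO value reached a WT value, but cKO mouse 1 was close to WT mouse 2. The log2 fold change was -0.68 (standard error 0.26, 95% interval -1.33 to -0.03, adjusted p = 0.0706 from limma). Its GC content of 41.7% was the lowest of the 9 genes, and its GC-corrected log2 fold change of -1.505 passed (adjusted p = 0.0129). With library total scaling it also passed (log2 fold change -0.90, adjusted p = 0.0347). Without WT mouse 1 it was -0.41 (adjusted p = 0.325) and without cKO mouse 2 -0.45 (adjusted p = 0.303).

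The difference for the stromelysin genes *Mmp3* and *Mmp10* rested on WT mouse 1. Stromelysins cut a wide range of matrix proteins and activate other MMP precursors. In the WT mice *Mmp3* (ENSMUSG00000043613, chromosome 9, 7445822 to 7455975) had 1540 and 34.7 normalized counts, and in the cKO mice 39.1 and 28.4. WT mouse 2 lay between the cKO mice, and WT mouse 1 was 44.3 times above WT mouse 2. *Mmp10* (ENSMUSG00000047562, chromosome 9, 7502352 to 7510240) had 602 and 76.2 in WT against 91.5 and 62.2 in cKO. Here too WT mouse 2 lay between the cKO mice, with a ratio of 7.89 between the WT mice. Neither passed the test, with log2 fold changes of -2.77 for *Mmp3* (95% interval -6.97 to 1.42, adjusted p = 0.203 from limma) and -1.496 for *Mmp10* (95% interval -3.85 to 0.85, adjusted p = 0.218 from limma).

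Leaving out WT mouse 1 brought the log2 fold change of *Mmp3* to -0.06 (adjusted p = 0.923 from limma) and that of *Mmp10* to -0.01 (adjusted p = 0.980). Leaving out WT mouse 2 instead gave -5.49 for *Mmp3* (adjusted p = 0.0131) and -2.98 for *Mmp10* (adjusted p = 0.0154). DESeq2 on the recovered reads called both genes lower with all 4 mice (adjusted p = 0.0317 and 0.0175). WT mouse 1 also had the highest summed fibroblast markers of the 4 mice, 4.16 times those of WT mouse 2, while its leukocyte markers were lower than those of WT mouse 2. Their part in the *Mmp3* and *Mmp10* values was not tested. The annotated transcripts of *Mmp3* and *Mmp10* share 140 stretches of 50 bases, 7.99% of those in *Mmp3* and 8.37% of those in *Mmp10*, so a part of their reads is uncertain. No other member shared any with the 29 transcripts compared.

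**Figure D2:**
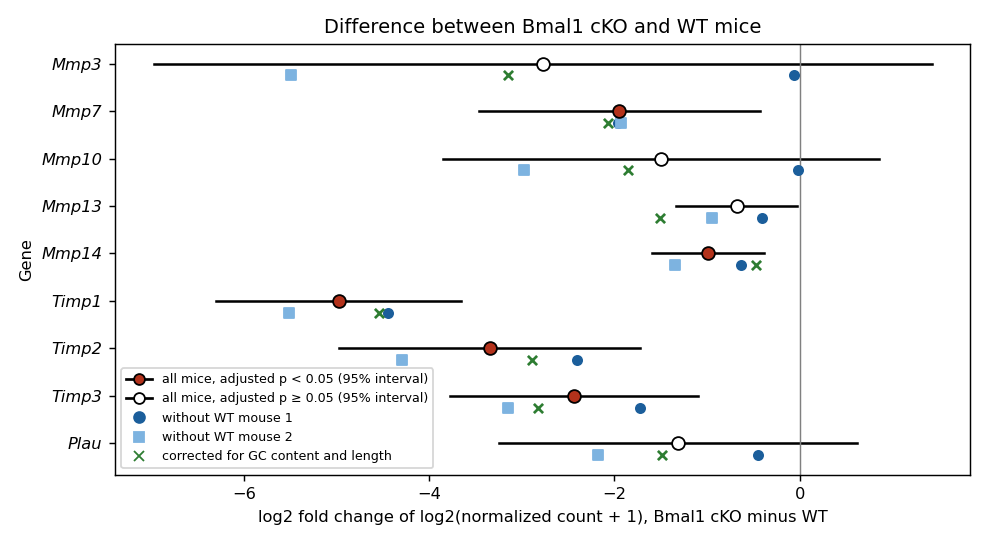
Log2 fold change (horizontal axis, cKO minus WT) of each of the 9 genes, with circles on bars for the fit to all 4 mice and its 95% interval (filled where the adjusted p was under 0.05), and small symbols for the fit without WT mouse 1, without WT mouse 2, or corrected for GC content and exon length. Without WT mouse 1, *Mmp3* and *Mmp10* move to -0.06 and -0.01, while *Timp1* stays at -4.44.

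*Plau* (ENSMUSG00000021822) lies on chromosome 14 from 20836660 to 20843385. Its WT values were 202 and 60.1 normalized counts, and its cKO values 78.2 and 24.3. The groups overlapped, since WT mouse 2 was below cKO mouse 1. *Plau* differed between the groups by a log2 fold change of -1.31 (standard error 0.77, 95% interval -3.25 to 0.62, adjusted p = 0.192 from limma). Without WT mouse 1 it was -0.45 (adjusted p = 0.692) and without cKO mouse 2 it was -0.49 (adjusted p = 0.672). Without WT mouse 2 or cKO mouse 1 it was -2.18 and -2.14, which did not pass either (adjusted p = 0.119 and 0.148).

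The order of the genes by level was compared per kilobase of exon. *Mmp3* was the highest of the 9 in WT mouse 1, at 855 normalized counts per kb, and the lowest in WT mouse 2, at 19.3. In WT mouse 2 the first places went to *Mmp14* and *Timp1*, at 157 and 156 per kb. Both cKO mice shared their first 3 places, with *Mmp14* at 95.8 and 107 per kb, *Mmp13* at 80.8 and 58.7, and *Mmp10* at 53.2 and 36.1. *Timp1* was among the first 3 of the 9 in the WT mice and among the last 3 in the cKO mice, at 8.11 and 4.57 per kb. *Timp2* and *Timp3* stood at 6.86 and 8.08 per kb in cKO mouse 1 and at 11.4 and 4.65 in cKO mouse 2, so their order differed between the cKO mice.

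Summed per kb, the 5 MMPs reached 1630 and 346 in the WT mice and 264 and 223 in the cKO mice, while the 3 TIMPs reached 564 and 225 against 23.1 and 20.7. For these 5 MMPs, the sum of WT mouse 2 was thus near those of the cKO mice, and its sum of the 3 TIMPs was not. The ratio of the MMP sum to the TIMP sum was 2.89 and 1.54 in the WT mice and 11.4 and 10.8 in the cKO mice. The ratio was higher in both cKO mice than in both WT mice, which is given as a description without a test. The smallest p of a two-sided exact permutation test with 2 mice per group is 0.333. The sums and the ratio leave out the other listed MMPs and *Timp4*, and were not made with them. Per kb, *Mmp15* stood at 394 and 542 in the WT mice and at 122 and 107 in the cKO mice. *Mmp8* stood at 69.7 and 466 against 1.70 and 1.67, while *Timp4* was higher in the cKO mice (1.15 and 0.86 against 3.49 and 4.13). These are levels of RNA and not of protein or of enzyme activity.

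**Figure D3:**
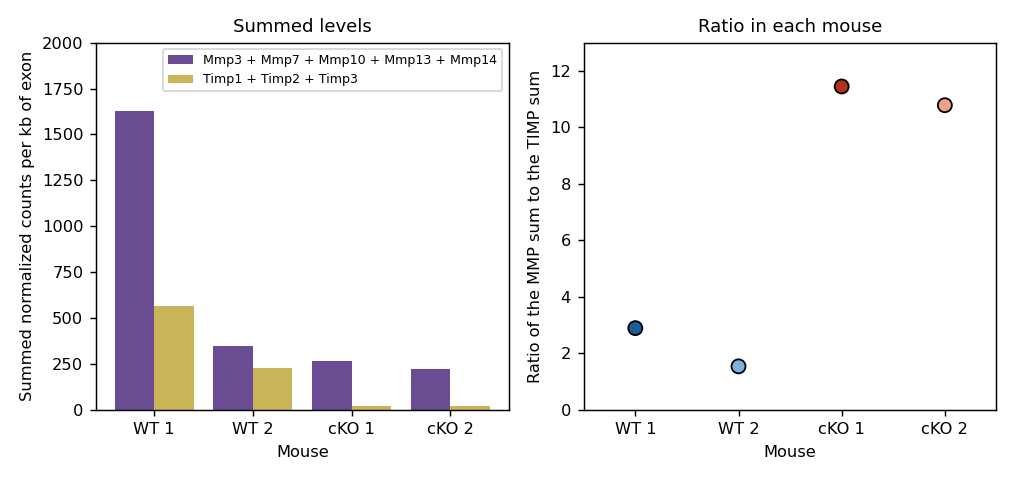
Left, summed normalized counts per kb of exon of the 5 MMPs and of the 3 TIMPs in each mouse, as bars. Right, the ratio of these sums in each mouse, 2.89 and 1.54 in the WT mice and 11.4 and 10.8 in the cKO mice.

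Most markers of non-epithelial cells were lower too. Of the 12 fibroblast markers, which include *Col1a1* and *Pdgfra*, 10 were lower and all 12 had both cKO mice below both WT mice, with a median log2 fold change of -3.50. Of 6 endothelial markers 5 were lower, with sums of 1943 and 487 in the WT mice and 68.9 and 101 in the cKO mice. Of 6 smooth muscle markers 5 were lower, with sums of 1738 and 1922 against 18.5 and 35.1, and *Des* at 0 in cKO mouse 1. Of the 12 leukocyte markers 9 were lower. Of the 12 epithelial markers 5 were lower and 1 was higher. In RNA of a mixed preparation, fewer cells of a type and less RNA per cell cannot be told apart, and the part of these cells in the values of the 9 genes was not tested.

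Set against the fibroblast sum, the members parted. Per 1000 summed fibroblast marker counts, *Timp2* stood at 41.98 and 47.1 in the WT mice and 36.2 and 55.0 in the cKO mice, so that the groups overlapped. *Timp1* stood at 17.7 and 34.9 in the WT mice and 9.74 and 5 in the cKO mice, below both WT mice. Its cKO values rest on 7 and 3 reads. *Mmp14* was at 93.2 and 235 against 772 and 788. *Mmp13* was at 21.6 and 61.6 against 292 and 193. On this scale *Mmp14*, *Mmp13*, *Mmp10* (36.4 and 19.2 against 124 and 76.7), *Timp3* (27.2 and 41.97 against 89.0 and 46.7) and *Plau* (12.2 and 15.1 against 106 and 30.0) were higher in both cKO mice than in both WT mice, while the groups overlapped for *Mmp3* and *Mmp7*. These ratios describe the 4 libraries, and a sum that differs this much between mice of one group is an uneven base. The smooth muscle sums differed more between the groups (1738 and 1922 in the WT mice against 18.5 and 35.1 in the cKO mice). Ratios to other marker sums were not made, so this parting of the members is shown for the fibroblast base only.

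The neighbours of the members in the chromosome 9 cluster differed among themselves. *Mmp8*, the collagenase of neutrophils, lies between *Mmp10* and *Mmp7* and had 169 and 1129 normalized counts in the WT mice and 4.11 and 4.06 in the cKO mice. It was lower in the cKO libraries (log2 fold change -6.43, adjusted p = 0.00270 from limma), and its order between the WT mice was the reverse of that of *Mmp3* and *Mmp10*. *Mmp12*, the macrophage elastase between *Mmp13* and *Mmp3*, had 62.5 and 56.8 against 33.9 and 20.3 (log2 fold change -1.15, adjusted p = 0.0558). *Mmp1a*, *Mmp1b*, *Mmp20* and *Mmp27* of the same stretch are not listed.

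**Figure D4:**
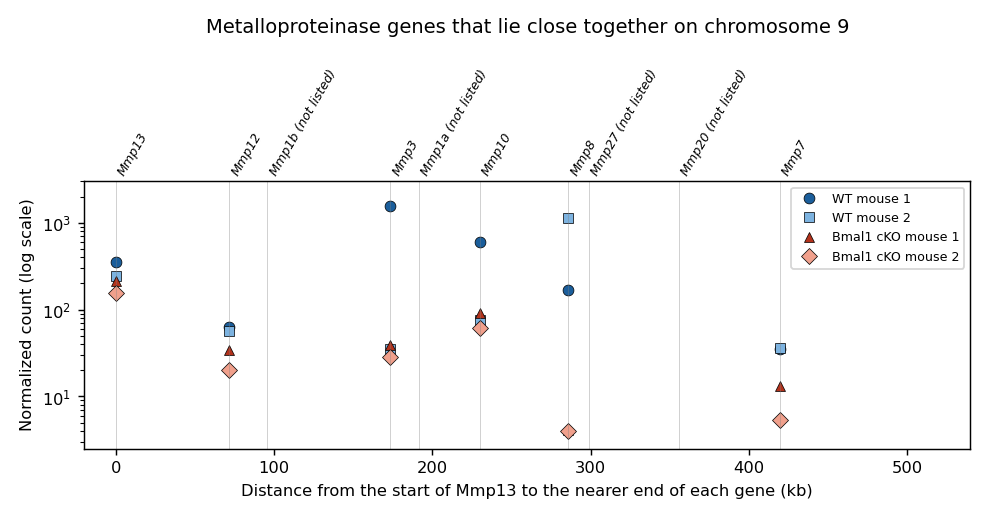
Normalized counts (vertical axis, log scale) of the metalloproteinase genes of the chromosome 9 cluster in the 4 mice, by distance from the start of *Mmp13* in kb. WT mouse 1 stands above the other 3 mice for *Mmp3* and *Mmp10*, and WT mouse 2 above the others for *Mmp8*.

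Of the other MMPs together with *Timp4* and *Reck*, 14 of 20 genes were listed and 11 tested, of which 7 were lower and 0 higher (limma), with a median log2 fold change of -2.72. At an unadjusted p under 0.05, 1 of them was higher, and edgeR called 1 higher and DESeq2 0. *Mmp2*, a gelatinase of stromal cells, had 956 and 108 normalized counts in the WT mice and 13.4 and 13.5 in the cKO mice (log2 fold change -4.48, adjusted p = 0.0132 from limma). *Mmp9*, the gelatinase of neutrophils and macrophages, had 215 and 867 against 50.4 and 20.3 (log2 fold change -3.71, adjusted p = 0.00975). *Mmp2* was thus highest in WT mouse 1 and *Mmp9* in WT mouse 2. The call of *Mmp2* was lost without either cKO mouse (log2 fold change -4.47 and -4.49, adjusted p = 0.103 for each) and kept without WT mouse 1 (-2.91) or WT mouse 2 (-6.05), and that of *Mmp9* without WT mouse 2 (-2.70, adjusted p = 0.0542) or cKO mouse 2 (-3.07, adjusted p = 0.0917). *Mmp19* had 118 and 153 normalized counts in the WT mice and 3 reads and 1 read in the cKO mice. *Mmp15*, which encodes the membrane-anchored MT2-MMP and was named after its values were seen, had 2126 and 2926 against 656 and 579 (log2 fold change -2.02, adjusted p = 7.32e-04). *Timp4* was the one TIMP with higher values in the cKO mice, 20.6 and 24.3 against 6.76 and 5.08, which did not pass (adjusted p = 0.0530).

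In the plasminogen system beside *Plau*, 10 of 12 genes were listed and 9 tested, of which 5 were lower and 2 higher, with a median log2 fold change of -2.23. *Plaur*, the urokinase receptor, had 767 and 1118 normalized counts in the WT mice and 215 and 180 in the cKO mice (log2 fold change -2.23, adjusted p = 9.43e-04 from limma). *Plat*, the tissue plasminogen activator, had 705 and 987 against 78.2 and 23.0 (log2 fold change -4.26, adjusted p = 0.00239). Both passed where *Plau* did not, and the difference between them and *Plau* was not tested. *Serpine2*, an inhibitor of plasminogen activators, had 483 and 125 normalized counts in the WT mice and 2 reads in each cKO mouse. The 2 higher genes encode binding sites for plasminogen, namely its receptor *Plgrkt* (443 and 591 against 1138 and 1267, log2 fold change 1.23, adjusted p = 0.00241) and *S100a10* (4231 and 4245 against 6509 and 6717, log2 fold change 0.64, adjusted p = 0.00287). The GC-corrected log2 fold change of *Plgrkt* was 0.57 (adjusted p = 0.0404). *Anxa2*, the partner of S100A10 and named after its values were seen, was lower (17949 and 20000 against 7198 and 7592, log2 fold change -1.36, adjusted p = 7.50e-04). *Plg* itself, made in the liver, is not listed.

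Of the ADAM and ADAMTS proteases, 18 genes were listed and 15 tested, with 7 lower, 3 higher and a median log2 fold change of -2.63. Among lower genes with a mean of at least 50, the largest log2 fold changes were those of *Adamts1* (-4.35), *Adam8* (-3.40), *Adamts4* (-3.37) and *Adamts9* (-3.28). The 3 higher ones shed proteins from the cell surface, namely *Adam10* (2343 and 2004 normalized counts against 6354 and 6112, log2 fold change 1.52, adjusted p = 5.46e-04 from limma), *Adam17* (0.87, adjusted p = 0.00142) and *Adam9* (0.75, adjusted p = 0.00165). *Adam17*, an enzyme that TIMP3 is known to block, lost its call in the GC-corrected values (log2 fold change 0.29, adjusted p = 0.0603), and the corrected log2 fold changes of *Adam10* and *Adam9* were 0.69 (adjusted p = 0.00964) and 0.37 (adjusted p = 0.0234). Without cKO mouse 2, *Adamts1*, *Adam8*, *Adamts4* and *Adamts9* were not called (log2 fold changes of -4.08, -2.88, -3.22 and -3.38, adjusted p between 0.0515 and 0.111), and without cKO mouse 1 *Adamts4* and *Adamts9* were not (-3.51 and -3.18, adjusted p = 0.0947 and 0.0561). *Adamts4* stood at -2.23 without WT mouse 1 and kept its call.

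Among 11 genes of cell surface proteolysis (proteases, their inhibitors and *Bsg*, known as an inducer of MMPs), 3 were lower and 2 higher, with a median log2 fold change of -0.07. *Furin*, the convertase known to cut the precursors of membrane-anchored MMPs, had 1417 and 1686 normalized counts in the WT mice and 495 and 420 in the cKO mice (log2 fold change -1.76, adjusted p = 6.30e-04 from limma, and -0.999 GC-corrected, adjusted p = 0.00532). *St14* (-0.76) and *Prss8* (-0.84) were also lower and *Tmprss2* (0.72) and *Mep1b* (1.12) higher, but in the GC-corrected values *Prss8* stood at -0.02 (adjusted p = 0.931) and *Mep1b* at 0.73 (adjusted p = 0.0636). *Tmprss2* was not called without WT mouse 2 or cKO mouse 1 (0.63 and 0.56, adjusted p = 0.0742 and 0.0811), *Mep1b* not without either cKO mouse (1.07 and 1.17, adjusted p = 0.104 and 0.0895), and *Prss8* not without WT mouse 1, WT mouse 2 or cKO mouse 1 (-0.92, -0.76 and -0.65, adjusted p = 0.0597, 0.0825 and 0.0521). Of 15 listed matrix substrates of these enzymes, 11 were lower and 0 higher (limma), with a median of -3.94. At an unadjusted p under 0.05 these counts were 13 and 0, by edgeR 12 and 0, and by DESeq2 14 and 0. In the GC-corrected values 9 were lower, and without either cKO mouse 6 were. Among them were *Col1a1* (-4.69) and the basement membrane collagens *Col4a1* (-5.33) and *Col4a2* (-4.59), while *Eln* had 542 and 25.4 normalized counts in the WT mice and 1 read in each cKO mouse, and its call was lost in the GC-corrected values (-4.62, adjusted p = 0.0569) and without either cKO mouse (-5.67 and -5.88, adjusted p = 0.124 and 0.117), against -5.78 with all mice, fitted values that depend on the pseudocount. The substrates and the fibroblast markers share 4 genes, and the sum of the substrates in WT mouse 1 was 4.12 times that in WT mouse 2.

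**Figure D5:**
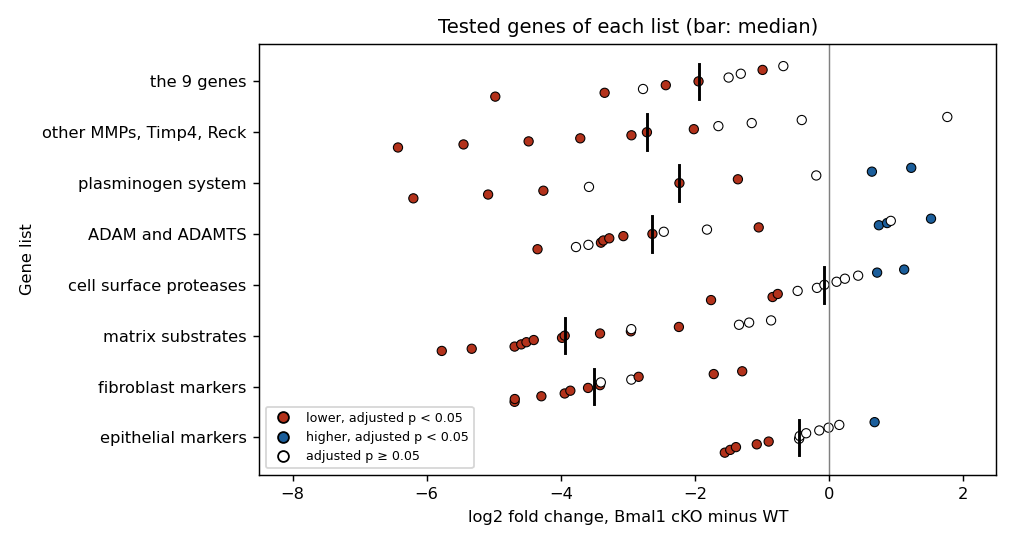
Log2 fold change (horizontal axis, cKO minus WT) of each tested gene in 8 gene lists, 1 circle per gene, filled red where lower and blue where higher with an adjusted p under 0.05, with a bar at each median. The 9 genes have a median of -1.95, the fibroblast markers -3.50, the epithelial markers -0.44 and the cell surface proteases -0.07.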

How the data were processed

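Per the labels and the methods, RNA of colonic epithelial cells was aligned to GRCm38 with STAR, and DESeq2 was used for normalization and differential expression. The counter and the annotation are not given in the sources used here. The values the authors deposited are a signal, the counts of each library after DESeq2's scaling. They also deposited their own comparison (log2 fold change, standard error, statistic, p-value and adjusted p-value), which was not used. Dividing by what 1 read is worth gave whole numbers, within 0.01, for 100% of the values, so reads were recovered. They are not counts of molecules. The 2 mice of a group differed by more than sampling noise, and more so in WT than in cKO (mean chi-square per gene 42.1 and 11.1). The fit used 1 variance per gene for both groups, and p-values measure the spread between these mice.

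The test was run on log2(value + 1), a scale on which changes of scarcely expressed genes appear too small. All 13983 genes whose mean reached 10 were fitted with limma 3.58.1 with a mean-variance trend, without a block for the replicate number. The exon lengths, GC content and positions of 16008 genes were those of the GRCm38 annotation used here, and promoters were RefSeq's. Alternatives were pseudocounts of 0.5 and 5, a minimum mean of 50 or none, library total and TMM scaling, edgeR 4.0.16 and DESeq2 1.42.0 on the reads, a replicate block, a loess correction (span 0.3) for GC content and exon length, and leaving out each mouse, where a lone mouse is assumed to vary like the other group. Steps were tested on simulated data, drawn with the same dispersion for every gene and group. This did not test the fit under the unequal spread of these mice. The members and lists were chosen with earlier results of these data known. Named were all members, the targeted gene, genes overlapping a member, and up to 4 lower and 4 higher genes per list (adjusted p under 0.05, mean of at least 50) by size of log2 fold change. A gene that this rule names is not reported here.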

Additional observations from a re-analysis of the deposited data

How the results depend on the processing

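Leaving out each mouse in turn gave between 1 and 6 of the 9 genes lower, between 3 and 6 of the other MMPs lower and between 0 and 1 higher, between 2 and 10 of the ADAM and ADAMTS genes lower, between 0 and 2 of the cell surface proteases higher, between 6 and 15 of the matrix substrates lower, and between 2205 and 2852 of all genes lower and 2654 and 3154 higher. Without cKO mouse 1 or cKO mouse 2, *Timp1* was the only member called, and without WT mouse 1, 3 members were. Without the filter on low values and with edgeR, 1 of the other MMPs and their inhibitors was higher. The correction for GC content and length left 2458 of all genes lower and 2570 higher and made 4 cell surface proteases higher. Together with the replicate block it left 2077 lower and 2177 higher. Library total scaling moved the median log2 fold change of all genes from -0.04 to -0.26 and the calls from 3871 lower and 4059 higher to 4885 lower and 3091 higher. At a minimum mean of 50, *Mmp7* was not tested. Mice with the same replicate number did not deviate together (r = -0.09 across genes between the WT and the cKO deviations), and the numbers are not known to pair the mice. A replicate block called 6 members lower, with *Mmp13* (adjusted p = 0.0214) and *Plau* (adjusted p = 0.0169) added and *Mmp7* (adjusted p = 0.0523) lost. No member changed direction under any alternative, and the causes of the other changes were not tested. Genes with few reads in the cKO mice, such as *Timp1* and *Mmp7*, are limited by depth.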
